A study of Mus musculus with 8 samples.

Results

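The levels of 9 neuronal calcium-binding protein genes of the EF-hand superfamily were followed in bulk RNA-seq of whole mouse brain. The members were taken by gene symbol, from a list drawn up with earlier results of these data known: the calcium buffers Calb1 (calbindin), Calb2 (calretinin) and Pvalb (parvalbumin), and the neuronal calcium sensors Hpca (hippocalcin), Hpcal1, Hpcal4, Ncald (neurocalcin delta), Vsnl1 (visinin-like 1) and Ncs1 (neuronal calcium sensor 1). All 9 were found among 24343 genes, and they account for 15 of 34535 deposited RefSeq transcripts. All animals were C57BL/6NCrl mice of 56-62 days under a single condition, and the labels name no transgene, treatment or control group. In all, 3 libraries came from mouse 1, 3 from mouse 2 and 2 from mouse 3. The sources do not say what distinguishes the libraries of a mouse, the sex of these mice is not in the labels, and libraries of 1 mouse are not independent animals, so an SD between mice has n = 3 and the tests between mice describe these 3 mice only.

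An EF hand is a helix-loop-helix fold that holds a calcium ion. Buffers such as parvalbumin, calbindin and calretinin bind calcium and shape how long and how far a calcium signal lasts, and antibodies to them are classical labels of interneuron classes; cerebellar Purkinje cells contain both parvalbumin and calbindin. The neuronal calcium sensors are small myristoylated proteins that change shape on binding calcium, in several of them exposing the lipid so that the protein moves to membranes, and they regulate targets there.

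The unit is FPKM, fragments scaled to transcript length and library size, which is a level per length and allows different genes to be compared. Transcripts were added up per gene, and the level of a gene is the mean of the 3 mouse means. Depth, estimated from the deposited coverage, was 1.31 to 2.02 gigabases on transcripts in each library. The read length is not given in the sources used here, so no counting interval was computed. The sum of FPKM ranged from 295541 to 409889 and was highest in the libraries of mouse 3. The libraries of mouse 3 also stood apart by transcript length. Across genes, the rank correlation (Spearman's rho) of length with the deviation from the mean of the libraries was 0.18 to 0.50 in the 6 libraries of mice 1 and 2 and -0.36 and -0.57 in libraries 1 and 2 of mouse 3, so short transcripts read higher and long ones lower there. Neuronal identity of the tissue was plain from Snap25, a synaptic fusion protein, at 1056 FPKM ± 56.3 (SD, n = 3 mice), while 4 of 5 pituitary genes were at 0 in at least 1 library and below 1 FPKM in all.

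The genes lie on 5 chromosomes of mm10, the build that the submitters' processing notes name. Calb1 spans chr4:15881264-15906709 on the plus strand, Calb2 chr8:110142538-110168206 on the minus strand and Pvalb chr15:78191118-78206351 on the minus strand. Among the sensors, Hpca spans chr4:129111570-129121925 (minus strand) and Hpcal4 chr4:123183504-123194699 (plus strand), which are 5.92 megabases apart. Hpcal1 spans chr12:17690814-17791926 (plus strand) and Vsnl1 chr12:11325245-11436649 (minus strand), with 6.25 megabases between them. Ncald spans chr15:37366175-37792428 (minus strand) and Ncs1 chr2:31245923-31295471 (plus strand). The deposited transcripts encode 330 coding bases for Pvalb, 783 for Calb1, 813 for Calb2 and 570 to 579 for the 6 sensors, as read from the matching GENCODE transcripts.

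Coding sequences show how the sensors are related and limit how well reads can be assigned. Hpca and Hpcal1 shared 86.0% of their coding bases, Hpcal4 and Vsnl1 82.4%, and Hpcal1 and Ncald 80.7%. Ncs1 was the most distant sensor, with 64.1% to 66.5% identity to the other 5. Despite this likeness, runs of 30 bases that also occur in transcripts of another gene made up 2.41% of those of Hpca, 4.87% of those of Ncald and less than 1% of those of Calb1, Calb2, Pvalb, Hpcal4, Vsnl1 and Ncs1. Hpcal1 was the exception with 22.9%, and the 4 genes that shared most of these runs are predicted genes, so its level is less certain. Exons of Hpca overlap those of Tmem54 on the opposite strand, which is listed at 0 in all 8 libraries. Exons of Ncald overlap the antisense gene Gm28221 and, on the same strand, the predicted gene Gm49397. The latter holds 174 of the 196 runs that Ncald shares with other genes, and no strand setting would separate their shared reads. No strand setting of the counting is stated, so reads of overlapping genes on opposite strands cannot be told apart either.

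Sequence upstream of the transcription start is shown for Hpca, a gene with alternative starts as is Ncald, for Pvalb, the buffer whose level varied most between the mice, and for Vsnl1, the most abundant sensor. Each run is 100 bases on the minus strand of GRCm38.p6 from RefSeq, written 5′ to 3′ with CG dinucleotides in capitals. The runs lie at chr4:129121304-129121403 (Hpca, main start), chr4:129121748-129121847 (Hpca, an upstream start), chr15:78206401-78206500 (Pvalb) and chr12:11436650-11436749 (Vsnl1). The Hpca runs end directly before starts that RefSeq and the deposited transcripts share. The Pvalb run ends before the RefSeq start, which lies 49 bases upstream of the deposited one, and the Vsnl1 run ends before the deposited start, which lies 71 bases upstream of the RefSeq one.
Hpca main start: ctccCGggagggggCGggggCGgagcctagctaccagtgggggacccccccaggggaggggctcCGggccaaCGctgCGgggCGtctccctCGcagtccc
Hpca upstream start: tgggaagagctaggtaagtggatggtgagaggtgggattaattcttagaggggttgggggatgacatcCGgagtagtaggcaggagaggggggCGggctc
Pvalb: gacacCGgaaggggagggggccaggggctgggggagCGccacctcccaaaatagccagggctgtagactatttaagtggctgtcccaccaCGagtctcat
Vsnl1: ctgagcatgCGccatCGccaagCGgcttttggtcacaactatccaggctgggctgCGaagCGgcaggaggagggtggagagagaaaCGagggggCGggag

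The run at the main start of Hpca held 8 CG dinucleotides and that of Vsnl1 7, against 2 at the upstream Hpca start and 3 at Pvalb. RefSeq windows of 300 bases, from 250 before the RefSeq start to 50 after it, were held for 6 of the 9 genes. Over all 32851 such windows the median GC content was 52.7% and the median number of CG dinucleotides was 7. Ncs1 had the most among the members (40 CG, 76.0% GC), followed by Hpcal1 (27 CG) and the main start of Hpca (27 CG, 74.0% GC). Hpcal4 had 22 CG and Vsnl1 18 CG. The window of the deposited Pvalb transcript had 5 CG and 58.3% GC. In all, 3 motifs that do not overlap one another were searched on both strands. The TATA box motif TATAAA occurred in 13.6% of all windows and in none of the 10 member windows. The CCAAT motif occurred in 37.4% of all windows, and among the members at Hpcal4 and Vsnl1. The GC box motif GGGCGG occurred in 35.7% of all windows, and among the members at Ncs1, Hpcal4, Hpcal1, Vsnl1 and both of the Hpca starts shown.

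Vsnl1, the visinin-like sensor also called VILIP-1, was the most abundant member at 249 FPKM ± 37.6 (SD, n = 3 mice) and ranked 194 of 24343 genes. Hpca, named for its abundance in the hippocampus, followed at 221 ± 8.19. Hpcal4 (VILIP-2) reached 141 ± 30.7, Pvalb 129 ± 45.4, and Ncald 114 ± 3.21. The lower group consisted of Ncs1 at 76.4 ± 18.2, Calb1 at 73.4 ± 11.2, Calb2 at 71.4 ± 4.63 and Hpcal1 (VILIP-3) at 49.1 ± 4.14, which still ranked 1290. Neighbours in this order were separated in 8 of 8 libraries at 3 steps: Hpca over Hpcal4, Ncald over Ncs1, and Calb2 over Hpcal1. At the other 5 steps the ranges of the mouse means overlapped. Vsnl1 exceeded Hpca in 7 libraries, Hpcal4 exceeded Pvalb in 7 and Calb1 exceeded Calb2 in 7, whereas Pvalb exceeded Ncald in 2 and Ncs1 exceeded Calb1 in 2, in each case those of mouse 3. Without mouse 3 the means were 269 for Vsnl1, 224 for Hpca, 124 for Hpcal4, 115 for Ncald, 103 for Pvalb, 79.8 for Calb1, 73.0 for Calb2, 66.0 for Ncs1 and 51.2 FPKM for Hpcal1, so Pvalb and Ncs1 each moved down in the order.

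**Figure D1:**
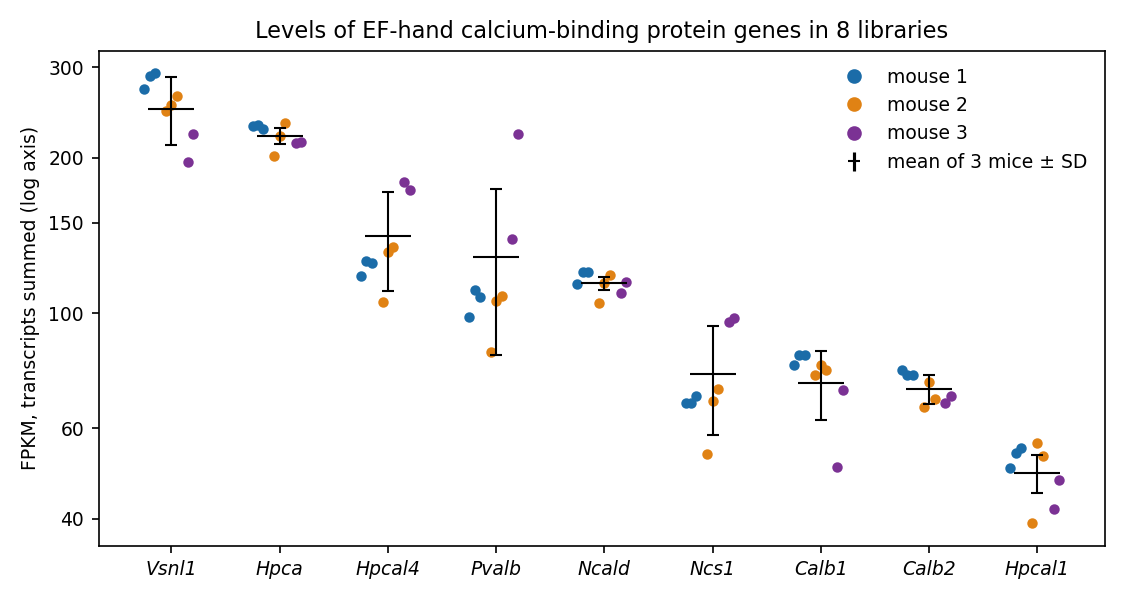
Summed FPKM (log axis) of the 9 genes in each of the 8 libraries, coloured by mouse, with the mean of 3 mice and its SD in black. The libraries of mouse 3 lie above all others for Hpcal4, Pvalb and Ncs1 (26.5% of all genes tested) and below all others for Vsnl1 and Calb1 (21.7%).

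The 6 sensors together held 70.6% to 77.5% of the summed FPKM of the members. The lowest share was in library 2 of mouse 3, where Pvalb alone made up 18.0% of the sum, against 8.62% to 9.61% in mice 1 and 2. The sum over all 9 genes was 977 to 1157 FPKM in mice 1 and 2 and 1094 and 1234 FPKM in mouse 3.

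The only comparison that the design allows is between the individual mice. For it a moderated F-test (limma) was run on log2(FPKM + 1) of the 13001 genes whose mean reached 1 FPKM, and p-values were adjusted over all of them by the Benjamini-Hochberg method. All 9 members passed that filter. The test called 4 of the 9 at an adjusted p under 0.05 (Ncs1, Hpcal4, Vsnl1 and Pvalb), where 26.9% of all genes tested were called. Mouse 3 lay above both others for 3 of the called members (background 15.0%) and below both for 1 (background 11.8%). The median difference, mouse 3 minus the mean of mice 1 and 2, was -0.07 on the log2 scale over the 9 members and 0.02 over all genes tested. In bulk tissue fewer cells of a type and less RNA per cell cannot be told apart. With mouse 3 left out, limma called 0 of the 9 members and 3 genes in all between mice 1 and 2, and 2 members (Calb2 and Vsnl1) and 563 genes had an unadjusted p under 0.05.

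Among the buffers, Pvalb varied most. It was 98.4, 111 and 107 FPKM in the libraries of mouse 1, 84.2, 106 and 108 in those of mouse 2, and 139 and 223 in those of mouse 3. Both libraries of mouse 3 lay above the other 6, as was true of 26.5% of all genes tested, and they differed from each other by more than the whole range of mice 1 and 2. The difference of mouse 3 from the mean of the others was 0.78 on the log2 scale (SE 0.17), a 1.72-fold higher level (adjusted p = 0.0245). At 903 bases Pvalb has the shortest transcript of the 9. With the trend in transcript length removed, the difference was 0.28 (SE 0.093) and the call was lost (adjusted p = 0.121), and it was also lost without library 2 of mouse 3, where the difference was 0.44 (adjusted p = 0.181), against 1.12 without library 1. Leaving out any 1 library of mouse 1 kept the difference at 0.76 to 0.80 but lost the call (adjusted p = 0.0533 to 0.0551). With both libraries at the ends of the length trend left out the difference was 0.39 and was called (adjusted p = 0.0313).

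Calb1 had its lowest values in mouse 3. It stood at 79.5, 83.0 and 82.9 FPKM in mouse 1, 76.0, 79.5 and 77.7 in mouse 2, and 50.3 and 71.1 in mouse 3. Both values of mouse 3 were below the other 6, which held for 21.7% of all genes tested. The difference of -0.41 (SE 0.11) did not pass the test (adjusted p = 0.0597). With the length trend removed it was also -0.41 (limma adjusted p = 0.0549), and without both libraries at the ends of that trend -0.66. Under TPM scaling it was -0.71 and was called (limma adjusted p = 0.00197), as were 44.0% of all genes tested. Relative to the median of all genes the difference was -0.45 under TPM and -0.43 with FPKM as deposited. Leaving out library 2 of mouse 3 left a difference of -0.65. Leaving out library 1 instead left -0.16, so the size of the difference rested mostly on library 1 of mouse 3.

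Calb2 was the steadiest buffer. Its libraries read 77.8, 76.2 and 76.1 FPKM in mouse 1, 66.0, 73.7 and 68.4 in mouse 2, and 66.9 and 69.2 in mouse 3. Mouse 1 was above both others in all its libraries, as for 4.29% of all genes tested, yet the F-test did not call the gene (adjusted p = 0.185). The ratio of Pvalb to Calb1 was 1.11 to 1.39 in mice 1 and 2 and 2.77 and 3.13 in mouse 3, and the ratio of Calb1 to Calb2 was 1.02 to 1.15 in mice 1 and 2 and 0.752 and 1.03 in mouse 3. These ratios and those that follow were chosen after the levels had been seen and carry no test.

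Pvalb was set beside genes of the cells that contain it. Pcp2 is a Purkinje cell protein, and Gad1 makes GABA in Purkinje cells and interneurons alike. The ratio of Pvalb to Pcp2 was 1.02 to 1.23 in mice 1 and 2 and 1.32 and 1.25 in mouse 3. The ratio of Pvalb to Gad1 was 0.763 to 0.820 in mice 1 and 2 but 1.51 and 2.91 in mouse 3. Gad1 itself fell to 92.2 and 76.5 FPKM in mouse 3 from 110 to 141 (difference -0.61, SE 0.11, adjusted p = 0.0111), so numerator and denominator moved apart. The summed level of 5 Purkinje cell markers was 272 to 335 FPKM in mice 1 and 2 and 404 and 571 in mouse 3, and 1 of the 5 was called, the G protein subunit Gng13 (0.93, SE 0.16, adjusted p = 0.00944). Pcp2 and Gng13 have transcripts of 473 and 414 bases, and with the length trend removed their differences were -0.16 and 0.07. The same correction gave -0.01 for Ppp1r17, 0.62 for Car8 and 0.44 for the calcium release channel Itpr1, of which only Itpr1 was called (adjusted p = 0.00472). Car8, whose transcript is 5722 bases long, read 36.9 to 39.8 FPKM in mice 1 and 2, 39.5 in library 1 of mouse 3 and 69.1 in library 2. Ppp1r17, also a Purkinje cell marker, read 12.7 in library 1 of mouse 3 and 24.0 in library 2, against 14.2 to 18.3 elsewhere. Itpr1 had the opposite order, at 93.0 in library 1 of mouse 3 and 83.3 in library 2, against 75.2 to 84.7 elsewhere. The part of Purkinje cell RNA in the Pvalb values was not tested.

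**Figure D2:**
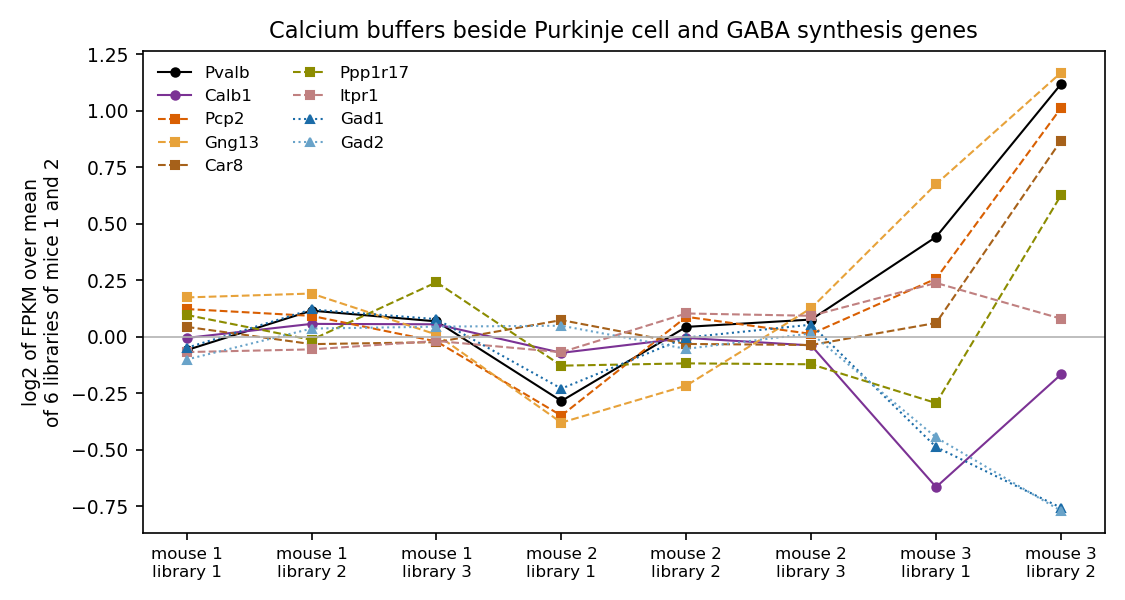
Log2 of the FPKM of each gene over its mean in the 6 libraries of mice 1 and 2, by library, for 2 calcium buffers (circles), 5 Purkinje cell markers (squares) and the GABA synthesis genes Gad1 and Gad2 (triangles). Lines only join the points of 1 gene. In library 2 of mouse 3, Pvalb and all 5 Purkinje cell markers lie above 0 and Calb1, Gad1 and Gad2 below 0.

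Ncs1, the mammalian homologue of fly frequenin, gave the smallest adjusted p of the members. Its level was 67.2, 67.1 and 69.2 FPKM in mouse 1, 53.5, 67.7 and 71.3 in mouse 2, and 96.4 and 98.1 in mouse 3. The libraries of mouse 3 agreed closely. Both lay above all others, as for 26.5% of all genes tested. The difference was 0.56 (SE 0.10), or 1.47-fold (adjusted p = 0.0147), and it was called in 7 of 8 fits that left out 1 library, the exception being library 2 of mouse 3 (difference 0.55, adjusted p = 0.121).

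Hpcal4 was also higher in mouse 3. It was 118, 126 and 125 FPKM in mouse 1, 105, 132 and 134 in mouse 2, and 180 and 173 in mouse 3. Both libraries of mouse 3 were above all others, as for 26.5% of all genes tested. The difference was 0.52 (SE 0.10), or 1.43-fold (adjusted p = 0.0182). The call was lost without either library of mouse 3 (adjusted p = 0.0705 without library 1 and 0.115 without library 2). Ncs1 and Hpcal4 have long transcripts, of 4035 and 4652 bases, and removal of the length trend raised their differences to 0.65 and 0.64. Scaling each library to the same total (TPM) lowered them to 0.27 and 0.22 and ended both calls (adjusted p = 0.0592 and 0.128), while the median of all genes moved to -0.26 under that scaling. Relative to that median both remained higher in mouse 3.

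Vsnl1 was ordered by mouse without overlap. It was 272, 288 and 292 FPKM in mouse 1, 246, 253 and 264 in mouse 2, and 196 and 222 in mouse 3. All libraries of mouse 3 lay below all others in 21.7% of all genes tested, and those of mouse 1 above all others in 4.29%. The share of genes with both was not computed. The difference of mouse 3 was -0.36 (SE 0.083, adjusted p = 0.0234), and it was -0.50 with the length trend removed. Under TPM scaling it was -0.66, but relative to the median of all genes the difference was -0.38 with FPKM as deposited and -0.41 under TPM. The adjusted p was 0.0548 to 0.0816 when any library of mouse 1, or library 2 of mouse 3, was left out. Vsnl1 exceeded Hpca 1.13-fold to 1.28-fold in mice 1 and 2 and was 0.920 and 1.04 times Hpca in mouse 3, so the leading sensor was not the same in every library.

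Hpca, Ncald and Hpcal1 did not pass the test. Hpca ranged from 202 to 234 FPKM in mice 1 and 2 and was 213 and 214 in mouse 3 (difference -0.07, SE 0.080, adjusted p = 0.604). Ncald had the smallest spread of the members relative to its level, with its highest library 1.15 times its lowest (105 to 120 FPKM). Its difference was -0.03 (SE 0.076, adjusted p = 0.699). Hpcal1 ranged from 39.3 to 56.2 in mice 1 and 2 and was 41.9 and 47.6 in mouse 3 (difference -0.18, SE 0.13, adjusted p = 0.415). The values of mouse 3 lay within the range of the others for all 3 genes, but this rested on library 1 of mouse 2. For Hpca and Hpcal1 both values of mouse 3 exceeded only that library, as did library 1 of mouse 3 for Ncald. Without library 1 of mouse 2 the differences were -0.09 for Hpca, -0.26 for Hpcal1 and -0.06 for Ncald (limma adjusted p = 0.415, 0.0585 and 0.657). Removing the length trend gave differences of -0.29 for Hpca (adjusted p = 0.0179), -0.40 for Hpcal1 (0.0190) and -0.36 for Calb2 (0.0141), so that 6 of the 9 members were called in that fit, where 22.2% of all genes tested were, 4 of them lower in mouse 3 (background 10.4%) and 2 higher (background 11.7%), and Ncald was at 0.01.

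Pairs of sensors with similar levels in mice 1 and 2 came apart in mouse 3. Hpcal4 was 1.01 to 1.15 times Ncald in mice 1 and 2 and 1.64 and 1.50 times Ncald in mouse 3. Ncs1 was 1.20 to 1.36 times Hpcal1 in mice 1 and 2 and 2.30 and 2.06 times in mouse 3. The ratio of Hpca to its closest relative in sequence, Hpcal1, was 3.92 to 5.14 over all libraries, with the values of mouse 3 inside that range.

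**Figure D3:**
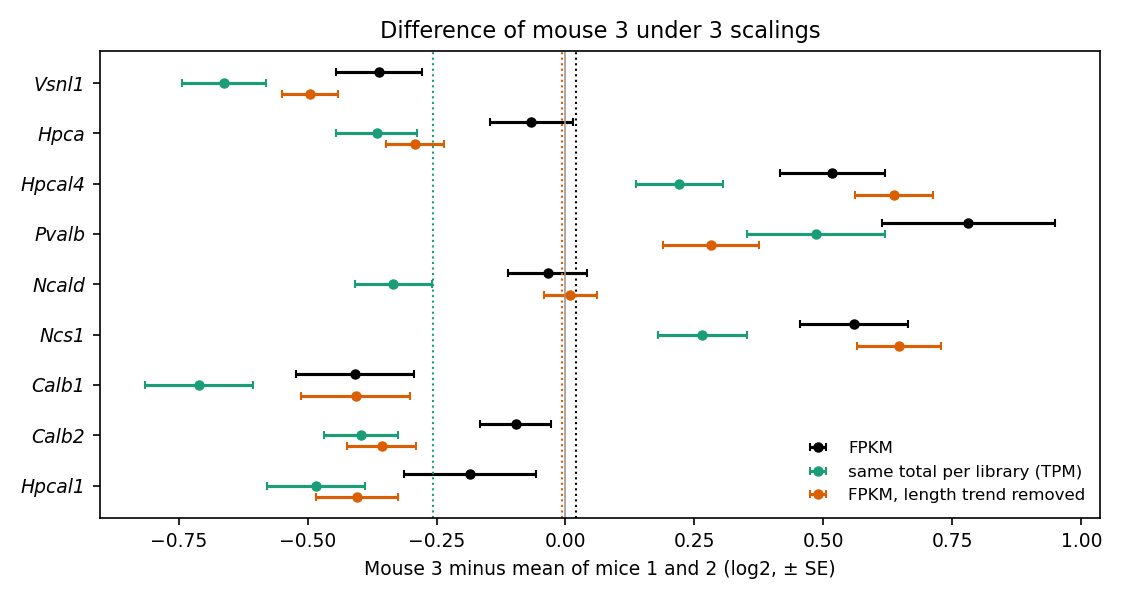
Difference of mouse 3 from the mean of mice 1 and 2 on the log2 scale (± SE) for each gene with FPKM as deposited, with equal totals (TPM) and with the length trend removed. Dotted lines mark the median of all 13001 genes under each scaling. Hpcal4, Pvalb and Ncs1 are right of 0 and Vsnl1, Calb1, Calb2, Hpca and Hpcal1 left of 0 under all 3, and Ncald changes side.

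Under TPM scaling 7 of the 9 members were called, where 44.0% of all genes tested were, 6 of them lower in mouse 3 (background 37.5%) and only Pvalb higher (background 6.58%). The split of all called genes moved with it, from 55.9% higher in mouse 3 with FPKM as deposited to 14.9% under TPM. The median of all genes was -0.26 under TPM. Relative to that median Ncald was at -0.08, Hpca at -0.11, Calb2 at -0.14 and Hpcal1 at -0.23. Vsnl1 was at -0.41, Calb1 at -0.45 and Pvalb at 0.74.

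Hpca and Ncald are the members with more than 1 deposited transcript. The coding sequence was the same in all 4 transcripts of Hpca and in all 4 of Ncald, so the transcripts differ in their untranslated exons and starts. NM_010471, from the main Hpca start, made up 87.9% ± 4.23 (SD, n = 3 mice) of the gene's FPKM. NM_001286083, from a start inside the main transcript's span, made up 7.61% ± 3.03, NM_001130419 2.81% ± 0.692 and NM_001286081 1.66% ± 0.528. The share of NM_010471 was 91.8%, 92.3% and 94.3% in the libraries of mouse 1, 87.6%, 81.5% and 86.6% in mouse 2, and 85.3% and 86.2% in mouse 3. Mouse 1 was above all others, as were 2.18% of the 3986 tested genes with more than 1 transcript. NM_001286083 mirrored it at 2.58% to 5.68% in mouse 1 and 7.78% to 11.4% elsewhere. The authors' confidence bounds on the FPKM of NM_010471 in the first library of mouse 1 were 200 and 223 around 212.

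Ncald was led by NM_001170868 at 69.5% ± 2.16 (SD, n = 3 mice), followed by NM_001170866 at 16.8% ± 1.84, NM_134094 at 7.96% ± 0.934 and NM_001170867 at 5.77% ± 0.785. NM_001170868 and NM_001170867 are given the same start site, which carried 71.2% to 78.8% of the gene's FPKM, while the other two start far upstream, at the distal end of the locus. The share of NM_001170868 was 66.3% to 71.6% in mice 1 and 2 and 68.8% and 74.9% in mouse 3, with overlap between the mice. The other 7 genes have 1 deposited transcript each, so no isoform could be compared.

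**Figure D4:**
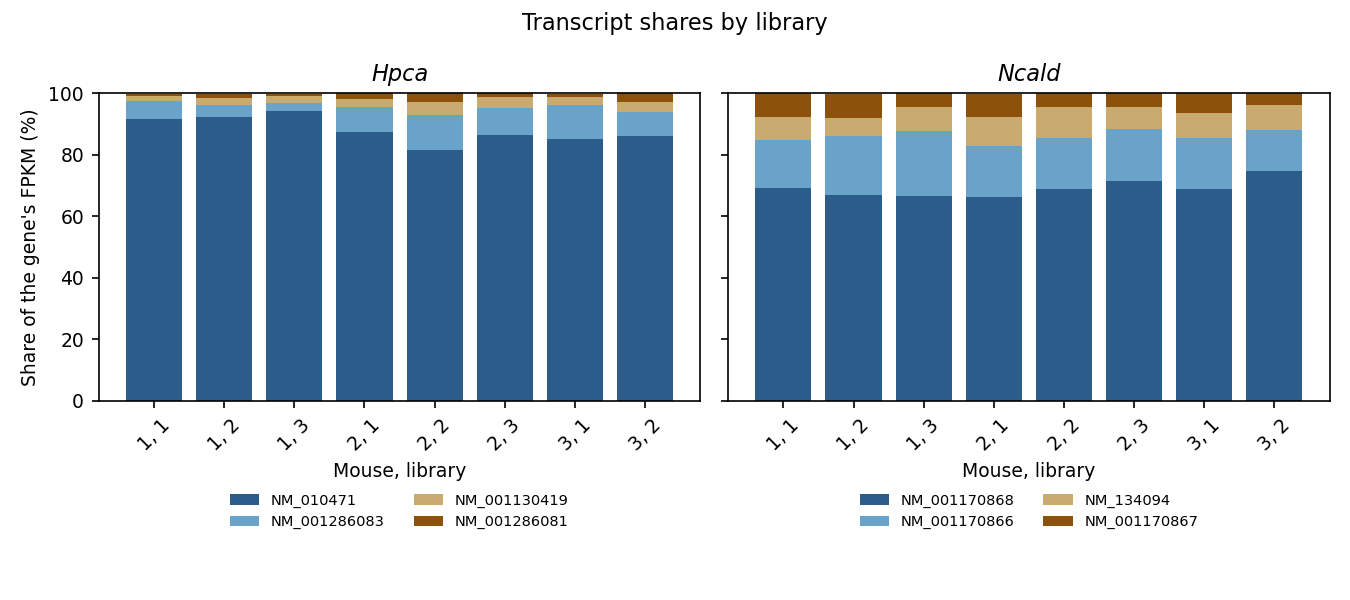
Share of each deposited transcript in the FPKM of Hpca and Ncald (%), by library, stacked to 100%. The leading Hpca transcript takes 91.8% to 94.3% in mouse 1 and 81.5% to 87.6% elsewhere, and the leading Ncald transcript 66.3% to 74.9%.

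Other sensors of the same family were lower. Of 7 such genes 4 passed the filter, the potassium channel-interacting proteins Kcnip1 to Kcnip4, at 14.8 to 33.9 FPKM. Kcnip4 was the only one called, at 34.4 to 39.5 FPKM in mice 1 and 2 and 25.9 and 30.8 in mouse 3 (difference -0.36, SE 0.089, adjusted p = 0.0400). The visual sensors Rcvrn (recoverin), Guca1a and Guca1b, known from photoreceptors, had means of 0.0259, 0.242 and 0.165 FPKM.

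Of 16 further EF-hand genes of brain 15 were tested. Of these, 5 were called with mouse 3 above (background 15.0%) and 2 with mouse 3 below (background 11.8%). S100b, an astrocytic S100 protein, was the most abundant at 151 FPKM ± 67.3 (SD, n = 3 mice) and rose by 1.00 (SE 0.12, adjusted p = 0.00492). S100a1 rose by 1.26 (SE 0.092, adjusted p = 0.00276), Cabp7 by 0.80, Cib2 by 0.53 and Sri (sorcin) by 0.43. Necab1 fell by 0.70 and Cabp1 by 0.27 on the log2 scale. With the length trend removed the difference of Cib2 was -0.07 and that of Cabp7 0.18, and neither was called, while S100a1 (0.58), S100b (0.81) and Sri (0.38) were still called. Under TPM scaling Sri was at 0.15 and was not called.

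Markers of other cells moved between the same mice. Over all genes tested, 15.0% were called with mouse 3 above and 11.8% with mouse 3 below, so 1 call in a list of 5 is near these shares. All 5 astrocyte markers were called with mouse 3 above, with a summed level of 968 and 1076 FPKM in mouse 3 against 575 to 626. Of 5 oligodendrocyte markers 2 (Mbp and Mobp) were called above, and their sum was 3881 and 4801 against 1990 to 2207. Of 5 general neuron markers 2 (Syt1 and Rbfox3) were called below, with sums of 1438 and 1536 against 1621 to 1746. Of 5 markers of cortical and hippocampal excitatory neurons 3 were below (sum 242 and 261 against 271 to 322). Of 5 GABAergic markers 2, Gad1 and Gad2, were below (sum 335 and 336 against 287 to 395). Sst and Vip went the other way, at 0.30 and 0.22, and were not called (limma adjusted p = 0.25 and 0.18). With the length trend removed they were at -0.39 and -0.01, and Sst was called (limma adjusted p = 0.0264). Of 5 striatal markers 2 were below (sum 105 and 124 against 126 to 149), and of 4 thalamic markers tested 1 was below. Cerebellar granule cell markers summed to 139 and 179 in mouse 3 and 149 to 156 in the others, with 1 of 5 below. Under TPM scaling fewer glial and more neuronal markers were called: 2 of 5 astrocyte markers and 0 of 5 microglial markers above (limma, with 2 microglial markers at an unadjusted p under 0.05), and 4 of 5 general neuron, 5 of 5 excitatory, 3 of 5 GABAergic, 4 of 5 striatal and 4 of 4 thalamic markers below. As with FPKM as deposited, 2 of 5 oligodendrocyte markers were called above. The backgrounds under TPM were 6.58% above and 37.5% below. With the length trend removed, 5 of 5 astrocyte and 3 of 5 oligodendrocyte markers were called above (background 11.7%). So were 2 of 5 endothelial and 1 of 5 microglial markers and the neuron marker Map2. Called below were 3 of 5 general neuron, excitatory and GABAergic markers each, 2 of 5 striatal and 1 of 4 thalamic (background 10.4%). With FPKM as deposited, microglial markers summed to 88.1 and 90.8 against 65.6 to 76.3, with 2 of 5 above, and endothelial markers to 104 and 112 against 52.9 to 77.3, with 1 of 5 above. Of 5 choroid plexus genes 1 was below, and of 5 blood genes 1 was above. Limma called 0 of 3 hindbrain and spinal markers and 0 of 1 pituitary gene tested, and 0 of these had an unadjusted p under 0.05. Under TPM scaling 1 hindbrain marker was called below. With the length trend removed the pituitary gene, Pomc, was called below (difference -0.31, limma adjusted p = 0.029). The part of such differences in tissue make-up in the values of the calcium-binding protein genes was not tested.

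The genes most like each called member across the 8 libraries were found by the root mean square difference of log2(FPKM + 1), each gene centred on its own mean. For Pvalb these were Tomm22, Uqcrb and Commd1, at 0.0606 to 0.0627 against a spread of Pvalb itself of 0.395, and 82 genes lay within 0.1. All 3 have short transcripts, of 503 to 1024 bases. For Hpcal4 they were Ddah1, Neurl1a and Ccbl2, with 331 genes within 0.1, for Ncs1 Fuca1, Ppp2r4 and Pink1, with 326, and for Vsnl1 Rnf115, Efcab6 and Pkp2, with 387. No other member was among the 3 closest genes of any called member.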

How the data were processed

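RNA was taken from whole brains of 3 mice and made into 8 libraries with a poly(A)-based kit. The authors deposited FPKM for each transcript in the columns of a Cufflinks table, and the submitters' processing notes name TopHat, Cufflinks and mm10. Their versions, strand setting and read length are not given in the sources used here. The deposited table also gives coverage, a signal of read depth per base, and confidence bounds on FPKM. FPKM divides reads among transcripts of a gene and by length, so that a library's length bias enters the values. The status was FAIL for 8 values, none of a member.

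Transcripts were summed per gene. Differences between mice were tested with limma 3.58.1 (moderated F-test with a trend in the prior spread, R 4.3.3) on log2(FPKM + 1) with Benjamini-Hochberg adjustment over 13001 genes, and the fit was tested on simulated data. A fold on this scale understates changes of low genes. The length trend was removed by lowess (fraction 0.3) in each library. Alternatives were another pseudocount (0.1), other filters, TPM, single transcripts, no trend in the prior spread, a block for library number, and leaving out libraries. Sequences were aligned with Biopython 1.88, and promoter windows come from RefSeq. No protein sequence was used here. The text names the members, the fixed lists of other EF-hand genes and cell type markers by counts, and the 3 genes most like each called member. The members and lists were chosen with earlier results of these data known.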

Additional observations from a re-analysis of the deposited data

Results flagged for a closer look

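In all, 17 measures were tested over the 8 libraries: the levels of the 9 genes and the shares of the 8 transcripts of Hpca and Ncald. Of these, 2 had a library far from the others. Chance gives about 1 in 20 only for independent values, which libraries of 1 mouse and transcript shares of 1 gene are not. Calb1 was 50.3 FPKM in library 1 of mouse 3, with the next library at 71.1 and the rest up to 83.0. Pvalb was 223 FPKM in library 2 of mouse 3, with the next at 139 and the rest down to 84.2. The outlying values belong to different libraries of the same mouse.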

How the results depend on the processing

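With FPKM as deposited 3496 genes and 4 members differed between the mice, and mouse 3 carried the calls: between mice 1 and 2 alone, a comparison added after the data were seen, limma called 3 genes and 0 members (563 and 2 at an unadjusted p under 0.05). TPM gave 5726 genes and 7 members. Leaving out single libraries gave 360 to 4097 genes and 1 to 4 members, the lowest without library 2 of mouse 3. Removal of the length trend gave 2880 genes and 6 members, and leaving out both libraries at the ends of that trend, also added later, 2397 and 6. Ncald, never called except under TPM, changed sign with the length trend removed (adjusted p = 0.922), with its highest transcript alone (0.885) and without library 1 of mouse 3 (0.673, within a range of 0.569 to 0.880 over the fits that left out 1 library). Without a filter on low values Pvalb missed the threshold (adjusted p = 0.0556). The highest transcript alone lowered the level of Hpca to 194 and of Ncald to 79.5 FPKM, since it leaves out the others. Over all alternatives, 15 tests of single members lost a call and 11 gained one, and 230 other values for single members kept their direction and side of the threshold or moved by less than the SD between mice. Causes of the changed calls were not tested. Same-numbered libraries of different mice deviated together only weakly (correlations 0.003 to 0.107 across genes), so the numbers were not taken as a pairing; with library number as a replicate block 3385 genes and 4 members were called. Depth is known only as bases read, so counting error could not be separated from the spread between libraries.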

Other observations

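Blood RNA was present in all libraries and its genes were not steady among themselves. Hba-a1, an alpha globin, ranged from 347 to 579 FPKM, and Hbb-bt, a beta globin, was 70.9 to 115 in mice 1 and 2 and 201 and 238 in mouse 3 (limma difference 1.14, SE 0.17, adjusted p = 0.00791). Hbb-bs, a near-identical copy of Hbb-bt, was below 0.01 FPKM in 2 libraries and 8.50 to 33.4 in the other 6, and such copies share reads that the counting could split differently in each library. The choroid plexus transport protein Ttr was 307 FPKM in library 1 of mouse 2 and 420 to 551 elsewhere. That library also had the lowest depth (1.31 gigabases) and the lowest sum of FPKM (295541). Its rank correlation of length with the deviation from the mean was the highest (0.50).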
